A study of Homo sapiens with 192 samples.

Results

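The 4 HOX clusters were examined in plate-based snATAC-seq of HAP1 cells, through 38 protein-coding HOX genes and the open-chromatin features that lie in and around them. HOXA holds 10 of these genes on chromosome 7, HOXB 10 on chromosome 17, HOXC 9 on chromosome 12 and HOXD 9 on chromosome 2. The features were those overlapping the span from the first to the last gene of each cluster, extended by 20 kb on both sides. This gave 46 of the 80971 features of the table, and all 46 were seen in at least 1 passing cell. HAP1 is an adherent, near-haploid human line derived from a chronic myeloid leukemia line. CASB-labeled cells, which carry a DNA tag bound to glycoproteins, were mixed with unlabeled cells and tagmented together, without any further treatment, and single nuclei were sorted into 2 plates of 96 wells. The label of a given cell is not known here, so each plate was read as 1 mixed sample, and labeled and unlabeled cells were not compared. No separate cultures are named, and therefore no test was made and every interval covers counting error only.

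HOX genes encode homeodomain transcription factors that give body segments their identity along the head-to-tail axis. Within a cluster the genes lie in the order in which they act, with low numbers anterior and high numbers posterior, and genes of equal number in different clusters are paralogs. In cells where a cluster is silent, Polycomb complexes keep it compacted, and MLL (trithorax) complexes maintain the parts that are active.

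Features are windows of 1001 bp on hg38 in which read pairs of each cell were counted, with a pair that spans several features entering each of them. A cell passed with more than 300 peaks, which left 83 cells in plate 1 and 79 in plate 2. Passing cells had a median of 2029 read pairs in plate 1 (345 to 12449) and of 2162 in plate 2 (361 to 15351). The HOX features took 0.0437% of these read pairs in plate 1 (0.0358 to 0.0529) and 0.0747% in plate 2 (0.0641 to 0.0865), 283 read pairs in all. Of the 234 entries above 0, 85.9% were a single read pair, and the largest was 4. The label HAP1 was checked with marker starts. All 8 adherent genes, among them VIM and CAV1, had a feature over a transcription start that was seen in 14 to 25 passing cells. Of 10 blood genes only RUNX1 had one, seen in 12 cells, and starts of PTPRC, SPI1 and GATA1 held no feature. Over all protein-coding genes, 50.3% had a feature over a start, and 4422 of 20007 were seen in at least 10 passing cells.

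Some wells stood apart and have to be named before the results. Wells of the same plate whose numbers differ by 36 (cells 37 to 48 with 73 to 84) or by 12 (cells 73 to 84 with 85 to 96) shared peaks. Of the 8 HOX features seen in exactly 2 cells of both plates, 7 were seen in such paired wells, and 26 of the 46 features had at least 1 read pair in both cells of a pair. The same counts over all features are not given here, so neither is read as a trait of the HOX features. In addition, 3 cells of plate 2 held many of the HOX read pairs. Cell 44, with 15351 read pairs, held 40 read pairs of the HOXA cluster, 29.4% of its total. Its paired well, cell 80, held 13. Cell 68, with 4024 read pairs, held 17 read pairs of the HOXC cluster, 18.7% of its total. Values are therefore also given without these cells or with the shared peaks taken out of the higher-numbered well.

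The clusters differed in how much open chromatin was seen in them. The HOXA span of 139.7 kb held 24 features, HOXC 12 in 157.2 kb, HOXD 7 in 138.2 kb and HOXB only 3 in 240.2 kb. This is 17.2, 7.63, 5.07 and 1.25 features per 100 kb, and the whole genome had 2.76. HOXA, HOXC and HOXD were thus denser in features than the genome and HOXB was sparser. Read pairs followed a like order, with 97.3 per 100 kb in HOXA, 57.9 in HOXC, 31.8 in HOXD and 5.00 in HOXB, where the genome had 16.3. Without cells 44, 68 and 80 the order remained, with 59.4, 43.3, 30.4 and 5.00. Features that overlap each other, 8 in HOXA and 4 in HOXC, add to these sums.

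The share of passing cells with at least 1 read pair was read for each plate. In the HOXA cluster it was 25.3% of plate 1 (21 of 83 cells, exact 95% interval 16.4 to 36) and 32.9% of plate 2 (26 of 79 cells, 22.7 to 44.4). In HOXC it was 21.7% (13.4 to 32.1) and 26.6% (17.3 to 37.7). In HOXD it was 18.1% (10.5 to 28) and 24.1% (15.1 to 35). In HOXB it was 6.02% (1.98 to 13.5) and 6.33% (2.09 to 14.2), with 5 cells in each plate. HOXA, HOXC and HOXD were each seen in more cells of plate 2, with intervals that overlapped, and HOXB in equal numbers. Over both plates, the intervals of HOXA (22.2 to 36.7%), HOXC (17.7 to 31.4%) and HOXD (15.0 to 28.1%) overlapped each other, and that of HOXB (3.00 to 11.1%) lay below all of them.

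**Figure D1:**
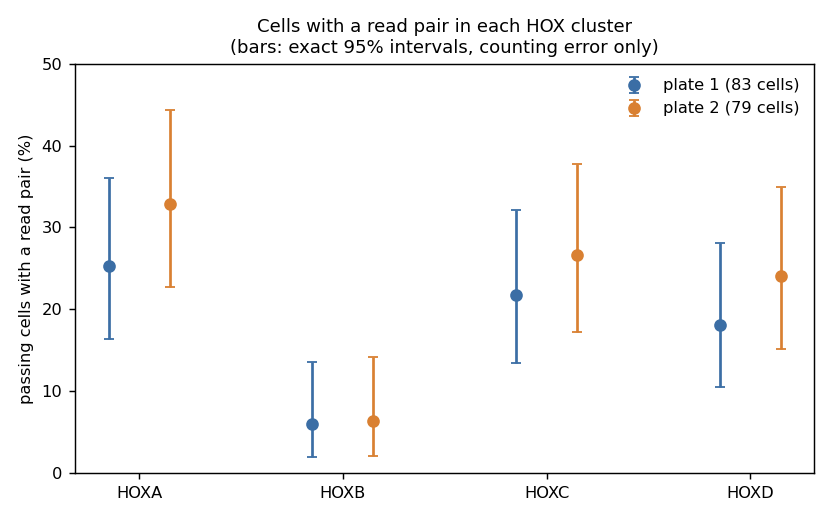
Share of passing cells (%, y axis) with at least 1 read pair in each HOX cluster (x axis), for plate 1 (blue) and plate 2 (orange), with exact 95% intervals that cover counting error only. HOXA, HOXC and HOXD lie between 18.1% and 32.9%, and HOXB lies at 6.02% and 6.33%.

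Over all clusters, 36 of 83 passing cells of plate 1 (43.4%, 32.5 to 54.7) and 50 of 79 of plate 2 (63.3%, 51.7 to 73.9) had a HOX read pair. Plate 2 also had more HOX read pairs for its depth, 0.747 per 1000 (0.641 to 0.865) against 0.437 (0.358 to 0.529) in plate 1. Without cells 44, 68 and 80 it had 0.475 (0.387 to 0.578), and the intervals overlapped. The share of cells was 61.8% (50.0 to 72.8) without them. These cells were chosen for their many HOX read pairs and all lie in plate 2. Taking them out had to lower its rate, so the overlap does not show that the plates are alike. Depth sets much of what can be seen. With passing cells ordered by depth into 3 groups of 54, in the shallowest (345 to 1322 read pairs) 25.9% had a HOX read pair, in the middle group 50.0%, and in the deepest (3196 to 15351) 83.3%. No cluster was seen in 76 cells, 1 in 54, 2 in 21, 3 in 10 and all 4 in 1 cell.

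Of the 38 genes, 11 (28.9%) had a feature over an annotated transcription start, whereas 50.3% of all 20007 protein-coding genes had one. These genes were mostly posterior. They made up 9 of the 16 genes numbered 9 to 13, 1 of the 15 numbered 4 to 8 (HOXA7) and 1 of the 7 numbered 1 to 3 (HOXD3), or 56.2%, 6.67% and 14.3%. The posterior share was near the 50.3% of all protein-coding genes, and the central and anterior shares lay below it. Without cells 44, 68 and 80, all 11 still had a start feature seen in at least 2 passing cells. With starts of protein-coding transcripts alone, HOXC10 was lost and the posterior count was 8. When a feature centered within 1 kb of a start was accepted, HOXA3, HOXA6, HOXC4, HOXC5 and HOXC6 were added, which gave 2 anterior, 5 central and 9 posterior genes. The central genes gained most under this wider window, and the posterior genes still led. The HOXC6 gain came through a feature already counted over a HOXC9 start. Annotated starts numbered 31, 36 and 38 in the 3 groups, so that the anterior genes had more starts per gene than the posterior ones.

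**Figure D2:**
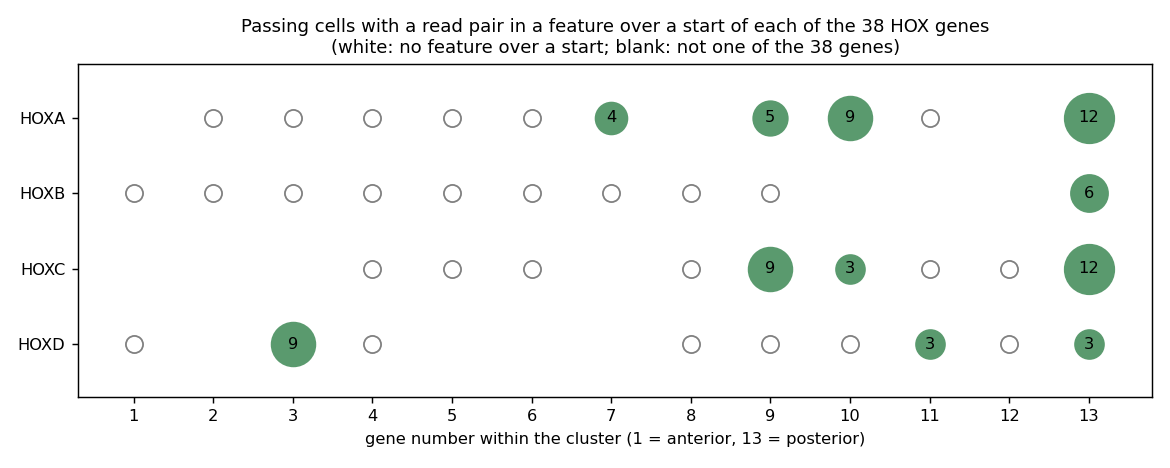
Each of the 38 HOX genes by gene number (x axis) and cluster (y axis). A green disc gives the number of passing cells with a read pair in a feature over a start of the gene, from 3 (HOXC10, HOXD11, HOXD13) to 12 (HOXA13, HOXC13). White circles are genes with no such feature.

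Genes numbered 13 were the only paralog group with a feature over a start in every cluster. HOXA13 and HOXC13 were each seen in 12 passing cells (7.41%, 3.89 to 12.6), HOXB13 in 6 and HOXD13 in 3. HOXA13 and HOXD13 pattern the ends of the limbs and the urogenital tract, HOXC13 acts in hair and nail formation, and HOXB13 is known for its role in prostate. The promoters of HOXA13 and HOXD13, from RefSeq on GRCh38.p14, are shown as a start seen in 12 cells and its paralog seen in 3. HOXB13 and HOXC13 are not printed, and their promoters held fewer G and C bases, 54% and 64%. Each runs from 250 bases before the start to 50 after it, and both lie wholly inside a feature. HOXA13 lies at chr7:27200042-27200341 on the minus strand and HOXD13 at chr2:176092471-176092770 on the plus strand. Capitals mark GC boxes, GGGCGG or its reverse complement CCGCCC, a motif bound by SP-family factors.
HOXA13: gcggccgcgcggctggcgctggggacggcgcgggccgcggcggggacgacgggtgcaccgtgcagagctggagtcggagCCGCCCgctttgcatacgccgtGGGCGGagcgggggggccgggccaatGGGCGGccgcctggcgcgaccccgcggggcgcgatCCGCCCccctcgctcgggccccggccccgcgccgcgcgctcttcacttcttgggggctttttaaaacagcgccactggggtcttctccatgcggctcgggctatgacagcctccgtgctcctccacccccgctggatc
HOXD13: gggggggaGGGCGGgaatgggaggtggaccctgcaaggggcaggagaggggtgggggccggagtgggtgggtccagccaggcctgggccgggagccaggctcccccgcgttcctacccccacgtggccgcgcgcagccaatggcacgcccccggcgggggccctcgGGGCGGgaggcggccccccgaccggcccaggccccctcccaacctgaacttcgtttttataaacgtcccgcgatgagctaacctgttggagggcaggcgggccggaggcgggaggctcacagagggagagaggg
The HOXA13 promoter was 76.3% G and C, with 44 CpGs and 4 GC boxes. The HOXD13 promoter was 74% G and C, with 24 CpGs and 2 GC boxes. A GC box in either direction was in 45% of the 35116 RefSeq promoters. Of the 38 genes, 20 were matched in the RefSeq promoters.

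At the HOXA13 end of its cluster, a pair of features overlapped by 577 bp. The feature at chr7:27199810-27200810 held the HOXA13 start, in an exon, and that of HOTTIP, a divergent long noncoding RNA known to act on the 5′ HOXA genes. It was seen in 9 cells of plate 1 (10.8%, 5.08 to 19.6) and 3 of plate 2 (3.80%, 0.790 to 10.7). The feature at chr7:27200234-27201234, upstream of HOXA13 and also over a HOTTIP start, was seen in exactly these 12 cells. With shared peaks taken out, 10 cells remained, and without cells 44 and 80, 11. This was the part of HOXA that most cells shared.

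Between HOXA7 and HOXA10, features followed each other closely but each was seen in few cells. HOXA10, a posterior gene active in uterus and blood progenitors, had 2 features over its 4 annotated starts, and 2 cells of plate 1 and 7 of plate 2 had a read pair there. The more widely seen of them, at chr7:27179476-27180476, was seen in 2 cells of plate 1 and 6 of plate 2. HOXA9, a gene often raised in leukemia, had 3 features over its 7 starts, seen in 1 cell of plate 1 and 4 of plate 2. Without cells 44 and 80, HOXA9 was seen in 3 cells and HOXA10 in 7. HOXA7 had 1 feature over a start, seen in 2 cells of each plate. The feature at chr7:27151582-27152582, which overlapped exons of HOXA3 and of an antisense noncoding gene, was centered 501 bp from a HOXA3 start and was seen in 3 cells of plate 1 and 5 of plate 2. Transcripts of neighbouring HOX genes overlap here, so a feature often belongs to more than 1 gene.

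No feature lay over a start of HOXA2, HOXA3, HOXA4, HOXA5, HOXA6 or HOXA11. The closest features to their starts were centered 4013 bp away for HOXA2, 2857 bp for HOXA4, 3322 bp for HOXA5 and 4713 bp for HOXA11. For HOXA3 and HOXA6 they were closer, at 501 and 771 bp. HOXA4 and HOXA5 lay whole in the longest stretch of the cluster without a feature, 18.7 kb. A further feature, at chr7:27095702-27096702, held the start of HOTAIRM1, a noncoding RNA of the 3′ end of the cluster that is induced during myeloid differentiation, and was seen in 2 cells of each plate.

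**Figure D3:**
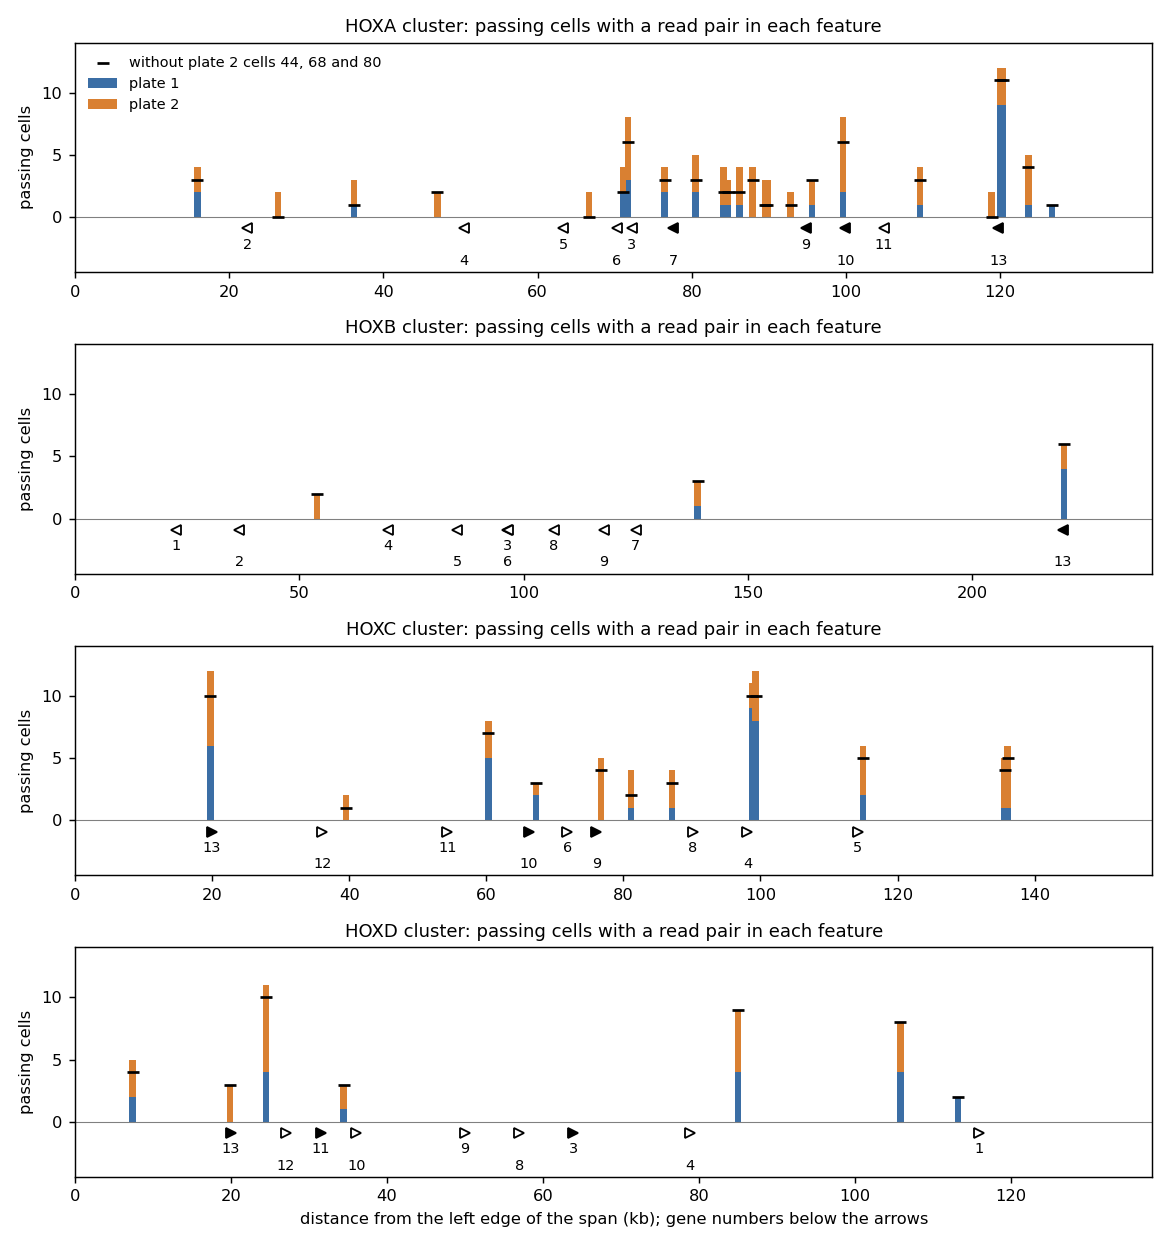
Passing cells (y axis) with a read pair in each of the 46 features, by distance from the left edge of the span (kb, x axis), stacked for plate 1 (blue) and plate 2 (orange). Black dashes give the count without plate 2 cells 44, 68 and 80, and arrows mark the 5′ end of each gene, filled where any of its starts holds a feature. The tallest bars stand at HOXA13, HOXC13, the first part of HOXC4 and beside HOXD12, and HOXB shows 3 bars.

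The HOXA features owed much to a pair of wells. Cell 44 had a read pair in 21 of the 24 HOXA features (87.5%), but in 3 of 12 HOXC, 2 of 7 HOXD and 0 of 3 HOXB features, and it saw 13.4% of all features. Cell 80 had one in 12 HOXA features, and each of these 12 was also seen in cell 44. Over the whole table, 60.5% of the features of cell 80 were also seen in cell 44. The other passing cells saw at most 4 HOXA features, and 27 of the 47 cells with a HOXA read pair saw 1. Cells 44 and 80 held 39% of the HOXA read pairs and 3.21% and 1.76% of all read pairs of passing cells. Without them HOXA had 83 read pairs, 3 of its 24 features were not seen in any passing cell, and 16 were seen in at least 2. The peak calling pooled the cells, so the reads of both wells also took part in defining these features.

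In the HOXC cluster, 2 cells stood apart. Cell 68 of plate 2 saw 9 of the 12 HOXC features and no feature of the other clusters, with 3.84% of all features seen. Cell 57 of plate 2 saw 7 HOXC features and none of the others, with 6.39% of all features seen. The remaining passing cells saw at most 4 HOXC features. For scale, the genome was cut into stretches of 140 kb, and 905 of those with at least 10 features lay outside the clusters. Cell 44 saw a median of 9.09% of the features of such a stretch, and 1 stretch reached its HOXA share. Cell 80 saw a median of 7.14%, and 21 stretches reached its HOXA share of 50%. Cell 68 saw a median of 0%, and 1 stretch reached its HOXC share of 75%. Such stretches were not rare among cells, since 55 passing cells had at least 1 of the 905 in which at least 75% of features were seen, and 66.7% of passing cells had one at 50% or above. These cells were picked out after their values were seen. Of the marker starts, cell 44 had 3 adherent and 1 blood start, cell 68 had 4 and 0, cell 57 had 2 and 0, and cell 80 had 4 and 0. The part of doublets, of shared wells and of depth in these values was not tested.

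**Figure D4:**
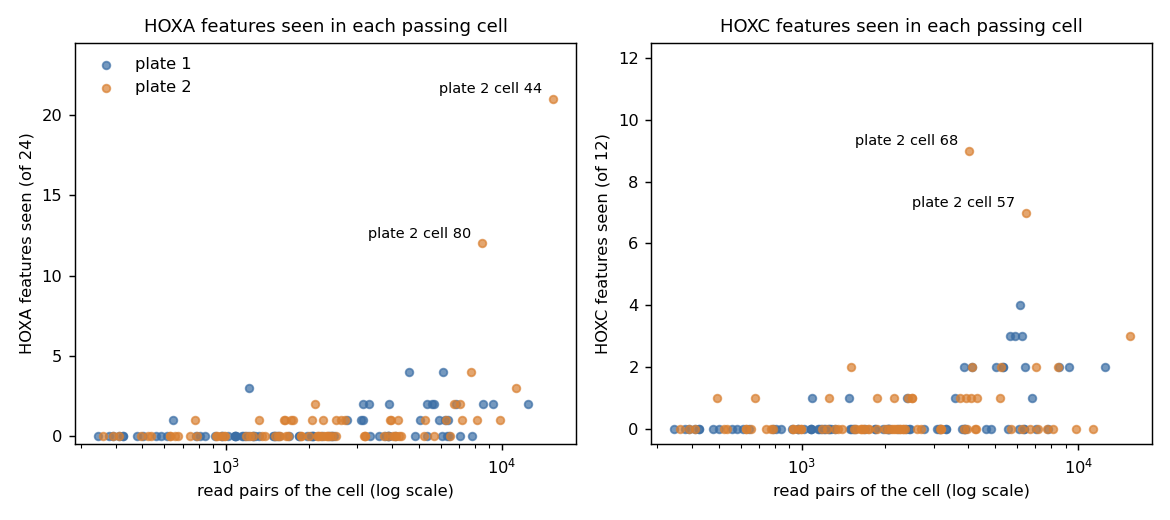
HOXA features (left, of 24) and HOXC features (right, of 12) seen in each passing cell, against the read pairs of the cell (x axis, log scale), with plate 1 in blue and plate 2 in orange. Cells 44 and 80 saw 21 and 12 HOXA features and cells 68 and 57 saw 9 and 7 HOXC features, and the other cells saw at most 4 of either cluster.

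In HOXC, the start of HOXC13 lay in the feature at chr12:53938072-53939072, which overlapped its first exon. It was seen in 6 cells of plate 1 (7.23%, 2.70 to 15.1) and 6 of plate 2 (7.59%, 2.84 to 15.8), the closest to equal among the most widely seen features. No paired wells shared it. HOXC9 and HOXC10, posterior genes of trunk and hindlimb, also had start features. HOXC9 was seen in 1 cell of plate 1 and 8 of plate 2 over its 2 features, and HOXC10 in 2 and 1. Without cells 44, 68 and 80, HOXC9 was seen in 6 cells in place of 9. A feature outside any gene, at chr12:53978623-53979623, was centered 5942 bp from the nearest HOXC10 start and was seen in 5 cells of plate 1 and 3 of plate 2.

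The most widely seen HOXC region away from posterior genes lay in the first part of HOXC4, a gene of the neck and upper trunk. The feature at chr12:54017082-54018082 was seen in 9 cells of plate 1 (10.8%, 5.08 to 19.6) and 2 of plate 2 (2.53%, 0.308 to 8.85). Its neighbour at chr12:54017634-54018634 was seen in 8 (9.64%, 4.25 to 18.1) and 4 (5.06%, 1.40 to 12.5). They overlapped by 449 bp and had 10 cells in common, and 13 cells had a read pair in either. With shared peaks taken out they were seen in 8 and 9 cells. The first overlapped an exon of HOXC4 and of HOXC6 and held the start of a noncoding gene. The second lay in an intron of both genes. Their centers were 651 and 1203 bp from the nearest HOXC4 start. AGGGGGC or its reverse complement GCCCCCT, a form of the core bound by CTCF, the factor that anchors chromatin loops, was searched in all features. A match was in 22 of the 46 HOX features (47.8%), in 14.8% of all features and in 38% of features with a transcription start. Matches are letters in a window and not measured binding.

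No start feature was found for HOXC4, HOXC5, HOXC6, HOXC8, HOXC11 or HOXC12. The nearest features were centered 609 bp from a start of HOXC4, 737 bp for HOXC5, 621 bp for HOXC6, 3068 bp for HOXC8, 5995 bp for HOXC11 and 3464 bp for HOXC12. HOXC4, HOXC5 and HOXC6 thus had a called feature within 1 kb of a start and the other 3 genes did not.

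In HOXD, the most widely seen feature lay outside any gene, at chr2:176096731-176097731, between HOXD13 and HOXD12. Its center was 2564 bp from a HOXD12 start. It was seen in 4 cells of plate 1 (4.82%, 1.33 to 11.9) and 7 of plate 2 (8.86%, 3.64 to 17.4), and paired wells shared none of them. HOXD13 itself had a start feature seen in 0 cells of plate 1 and 3 of plate 2. A count of 0 of 83 cells allows a share of up to 3.61%, taken as 3 counts, and the exact 95% interval reaches 4.35%. HOXD11, which acts in forearm and kidney development, was seen in 1 and 2 cells. HOXD3 had a feature over 1 of its 5 starts, at chr2:176157275-176158275, seen in 4 cells of plate 1 (4.82%) and 5 of plate 2 (6.33%). It was the single anterior gene with a start feature, and it was not seen in cells 44, 68 or 80. The feature at chr2:176178073-176179073 held a start of HAGLR, a noncoding RNA opposite HOXD1 and HOXD3, and was seen in 4 cells of each plate. The feature at chr2:176079609-176080609 lay in EVX2, the homeobox gene beside HOXD13, and was seen in 2 and 3 cells. No feature held a start of EVX2, nor of EVX1 beside HOXA13.

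HOXD1, HOXD4, HOXD8, HOXD9, HOXD10 and HOXD12 had no start feature. A stretch of 49.6 kb without any feature held HOXD4, HOXD8, HOXD9 and HOXD10 whole. The distance from a start to the nearest feature center was 1639 bp for HOXD10, 2564 bp for HOXD12, 2719 bp for HOXD1, 6225 bp for HOXD4, 15568 bp for HOXD9 and 22543 bp for HOXD8. The center of HOXD was thus empty of features, with open chromatin on both sides of it.

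HOXB had the least open chromatin. Of its 10 genes only HOXB13 had a start feature, at chr17:48728473-48729473, over the first exon, seen in 4 cells of plate 1 (4.82%, 1.33 to 11.9) and 2 of plate 2 (2.53%, 0.308 to 8.85). The feature at chr17:48646822-48647822 held starts of the noncoding genes LINC02086 and LINC03057, between HOXB9 and HOXB13, and was seen in 1 and 2 cells. The feature at chr17:48561945-48562945, in an intron of HOXB3, was seen in 0 cells of plate 1 and 2 of plate 2. Each of the 3 features had a read pair in both cells of a pair of wells, and with shared peaks taken out they were seen in 5, 2 and 1 cells. HOXB4, HOXB5, HOXB6, HOXB7, HOXB8 and HOXB9 lay whole in a stretch of 83.9 kb with no feature, the longest of the cluster. The median gap between features over the genome was 18.8 kb, but a longest gap is not comparable with a median. How common gaps of this length are over the genome was not counted. From a start to the nearest feature center it was 5502 bp for HOXB3, 13750 bp for HOXB7, 15905 bp for HOXB4, 17336 bp for HOXB2, 20964 bp for HOXB9, 31334 bp for HOXB5, 31434 bp for HOXB1, 32030 bp for HOXB8 and 34689 bp for HOXB6. The HOXB genes had a median of 19150 bp, against 636 bp in HOXA, 621 bp in HOXC and 2564 bp in HOXD. At this depth a gene without a called feature is not shown to be closed.

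By the position of the nearest gene start, 26 of the 46 features lay by posterior genes, 12 by central and 8 by anterior ones. A read pair in a posterior feature was seen in 64 passing cells (39.5%, 31.9 to 47.5), in 30 of plate 1 and 34 of plate 2. Central features were seen in 33 cells (20.4%, 14.5 to 27.4) and anterior ones in 28 (17.3%, 11.8 to 24). Without cells 44, 68 and 80 the counts were 61, 30 and 26 cells. Posterior features were seen in more cells than the others, and they were also more numerous.

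A feature seen in at least 10 passing cells was taken as widely seen. There were 6 such HOX features of 46 (13%), and 11.4% of all features were widely seen. Of the 25 HOX features with an annotated start 4 were widely seen, and 31.1% of all features with a start were. The median HOX feature with a start was seen in 4 passing cells, and the median of all features with a start was 7. Without a start the medians were 4 and 3. The median of HOX starts thus lay below that of starts in general, and that of other HOX features did not. The 6 features lay at 4 places, the HOXA13 start, the HOXC13 start, the first part of HOXC4 and the region between HOXD13 and HOXD12.

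Plates were compared for these features alone. In 3 of the 6 the shares differed by at least 2 times, and 22.4% of all 9263 widely seen features did so. These were both HOXA13 features, 2.86 times higher in plate 1, and the feature at chr12:54017082-54018082, 4.28 times higher in plate 1. They rest on 12, 12 and 11 cells, and the intervals of the plates overlapped in each. The 2 HOXA13 features overlap and were seen in the same 12 cells, so the 3 of 6 counts that place 2 times. Of the 46 features, 32 (69.6%) were seen in both plates, 2 in plate 1 alone and 12 in plate 2 alone. Over all features, 56.3% were seen in both. How many of all features were seen in plate 1 alone or plate 2 alone is not given here. The 2 against 12 is therefore not read as a trait of the HOX features. Among the 12, 3 HOXA features were seen in no passing cell other than cells 44 and 80 of plate 2.

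The clusters also hold miRNA genes, and 2 of the 6 read here had a feature over the hairpin. The share over all miRNA hairpins is not given here, so this count is not read as a trait of the clusters. Mature sequences from RefSeq are shown with the seed, bases 2 to 8, in capitals.
hsa-miR-196b-5p: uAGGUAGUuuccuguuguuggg
hsa-miR-615-3p: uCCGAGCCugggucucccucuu
hsa-miR-196a-5p: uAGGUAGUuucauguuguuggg
hsa-miR-10a-5p: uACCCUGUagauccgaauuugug
miR-196b and miR-196a share their seed, and miR-196 is known to target HOXB8. MIR196B, at chr7:27169480-27169563 on the minus strand inside the HOXA9 annotation, lay in a feature seen in 0 cells of plate 1 and 3 of plate 2, which also held a HOXA9 start. MIR615, at chr12:54033950-54034045 in HOXC5, lay in a feature seen in 2 and 4 cells. No feature overlapped the hairpins of MIR196A1 and MIR10A in HOXB, of MIR196A2 in HOXC or of MIR10B in HOXD, and the nearest features were 14263, 16893, 3218 and 6863 bp away. The feature over MIR196B was seen in 1 cell without cells 44 and 80.

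The base composition of the HOX features, which the choice of members did not use, was also read. Single HOX features ranged from 34.2% to 70.4% G and C. Their median GC content was 59.3%, near that of features with a start (60.1%) and above that of all features (41.4%). Their median ratio of observed to expected CpG was 0.661, and it was 0.737 in features with a start and 0.215 in all features. A ratio of at least 0.6 was found in 28 of the 46, and in 15.2% of all features. An annotated start lay in 25 of the 46 (54.3%) and in 17.2% of all features. A GC box was in 73.9% of HOX features, 78.4% of features with a start and 25.5% of all features. TGATNNAT, a form of the site that PBX and HOX proteins bind together (N is any base, either strand), was in 9 of the 46 (19.6%), 18% of features with a start and 42.1% of all features. In GC content and both of these motifs, HOX features lay closer to start features than to all features. The 25 HOX features with a start are part of these values, and those without one were not read apart.

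CpG-rich promoters are open in most cell types, so the genes were also read by promoter composition. A promoter of 300 bases at the 5′ end of a gene was taken as CpG-rich with at least 55% G and C and a ratio of at least 0.6. The feature could lie over any annotated start of the gene, and so not always over the promoter that was scored. Of the 38 HOX genes 14 were CpG-rich (36.8%), and 5 of these 14 had a feature over a start (35.7%). For HOXC9 and HOXC10, both among these 5, the features lay over other starts than the scored 5′ end. Of all protein-coding genes 51% were CpG-rich, and 64.9% of those had a start feature. Of the other genes, 25% of the HOX genes and 35.1% of all had one.

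Regulators of the clusters were read from a list of 40 genes. A feature over a start was found for 25 of them, where 50.3% of all protein-coding genes had one, and 13 were seen in at least 10 passing cells, against 2 of the 38 HOX genes and 4422 of the 20007 protein-coding genes. The most widely seen of them was MEIS2, a homeodomain cofactor that binds DNA with HOX proteins, in 13 cells of plate 1 and 18 of plate 2. It has 5 start features, which adds cells. RAD21, a cohesin subunit, was seen in 12 and 8 cells, and EED, a core Polycomb subunit, in 8 and 7. KMT2A, which encodes MLL1, CTCF, the cohesin subunit SMC3 and the Polycomb ligase RNF2 followed with 13 cells each.

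By group, and beside the 50.3% of all protein-coding genes, 6 of 12 Polycomb genes had a start feature, 7 of 10 MLL complex and other activating genes, 6 of 8 cofactors of the PBX, MEIS and PKNOX families, and 6 of 10 upstream and architecture genes. The 15 without one were EZH1, SUZ12, JARID2, PCGF2, CBX2 and CBX7 of Polycomb, KMT2D, WDR5 and DOT1L of the activators, the cofactors PBX2 and MEIS3, and CDX1, CDX2, CDX4 and MAZ. The CDX genes, which act upstream of HOX genes in the embryo, were without a feature as a family. EZH2, the Polycomb methyltransferase, was seen in 3 cells of plate 1 and 8 of plate 2. SUZ12 and WDR5 are used in most cells, so a missing feature does not show that a gene is off.

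**Figure D5:**
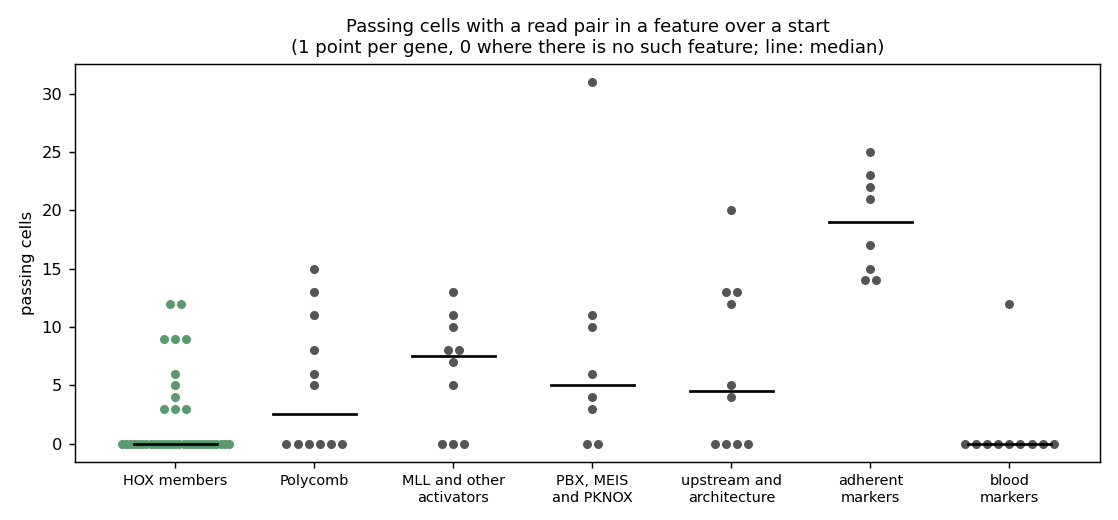
Passing cells (y axis), with a read pair in a feature over a start, 1 point per gene, for the HOX genes and for lists of regulators and markers (x axis), with genes without a start feature at 0 and the median as a line. The median HOX gene is at 0 and the highest at 12, MEIS2 reaches 31, and the adherent markers lie between 14 and 25.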

How the data were processed

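Plate-based snATAC-seq was read in HAP1 cells, 96 in each of 2 plates. According to the methods of the study, the authors trimmed the reads, took out CASB reads, mapped what was left with bowtie2 (hg38), and discarded mitochondrial, low-quality and, within a cell, duplicate alignments. Pooling the cells, they ran MACS2 and widened each summit to 1001 bp. The deposited table holds raw, unnormalized counts per feature and cell, in read pairs, from featureCounts (version 1.6.0). Cells were grouped by plate, from the labels, and 0 columns were left over.

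The counts were binarized, peaks seen in fewer than 2 cells were dropped when cells were judged, and cells with more than 300 peaks passed. All features were kept for the clusters. Genes, exons and starts came from GENCODE 44, and the 24 chromosome names and lengths of the features fitted the reference. Shares have exact (Clopper-Pearson) 95% intervals and summed counts exact Poisson intervals, which cover counting error only, since these reads carry no molecular identifiers and several may come from 1 molecule. No test was made, because cells are not replicates. No doublet caller was applied to these sorted nuclei. The alternatives changed the cell cutoff, paired wells, depth (600 read pairs per cell), read pairs per feature, the span and the start rule. The counting was tested on simulated data. Members, lists and rules were chosen with earlier results of these data known. The features named in full were the 4 seen in most passing cells of each cluster, start features seen in at least 10 cells, and, of the regulators, the 5 most seen (with ties) and those without a start feature. The HOTAIRM1 feature was named outside this rule, after its values were seen. A further gene that fits the naming rule and 2 genes of the regulator lists are not reported here. Values were computed in Python 3.11.15 with pandas 2.3.3, NumPy 2.4.6 and SciPy 1.17.1, and drawn with matplotlib 3.10.9.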

Additional observations from a re-analysis of the deposited data

How the results depend on the processing

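No paired analysis was possible because no result comes from a test, and cell numbers shared by the plates pair nothing. Of the 62 values under alternatives, 46 stayed within the interval of the reported value or, for counts, within 1.5 times, and 16 moved. Thinned to 600 read pairs, with shallower cells left out, the share of cells was 11% in HOXA, 1.37% in HOXB, 5.48% in HOXC and 8.22% in HOXD. With at least 2 read pairs in a feature it was 4.94%, 0.617%, 3.7% and 1.23%. HOXA moved to 37.8% in cells with more than 1000 peaks and to 20.9% without cells 37 to 48 and 73 to 96. In the same 2 settings HOXB, with 6.72% and 3.30%, stayed below the other clusters, and it was the lowest in all settings. HOXD was the highest without these wells (25.3%, HOXC 18.7%) and lay above HOXC after thinning, so the order of HOXA, HOXC and HOXD was not kept. Without cells 37 to 48 and 73 to 96, and likewise after thinning or with at least 2 read pairs, 0 of the 46 features were seen in 10 passing cells. These settings kept fewer cells, fewer reads or only the higher counts, and the cause of the loss was not tested. With at least 5 passing cells 19 features were widely seen, and with at least 20, 0. Genes with a start feature numbered 6 where it had to be seen in 5 passing cells, and 10 to 16 under the other rules. Settings without cells 44, 68 and 80 were added after seeing the data and moved no share past its interval. A share counts each cell once, so leaving out so few cells could not move it that far. That result therefore does not show that the shares are robust, though the values of these settings are among the 46 that stayed. Depth limits all values, since a HOX read pair was seen in 25.9% of the shallowest 54 cells and 83.3% of the deepest 54.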
